A study of Mus musculus with 48 samples.

Results

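The adrenergic receptor genes Adra1a, Adra1b, Adra1d, Adra2a and Adrb1 were followed in mouse astrocyte RNA-seq libraries. They were taken by symbol from the 6 deposited tables of normalized reads and make up 5 of 24421 gene symbols. The series holds 48 libraries in 15 groups, and the astrocytes came from cortex, hippocampus or olfactory bulb. Its title and design concern inhibitory input and the GABA-B receptor in astrocyte development. Each region has a developmental table with libraries at postnatal day 1, 7 and 14 (P1, P7, P14), with 3 libraries a group and 4 at P14 in the cortex, for which the labels give no genotype or treatment. Each region also has a P28 table that compares Gabbr1 control with Gabbr1 cKO. Gabbr1 encodes a GABA-B receptor subunit, and cKO is the usual short form for a conditional knockout. The P28 groups held 4 control and 4 cKO libraries in the cortex, 2 and 4 in the hippocampus, and 3 and 3 in the olfactory bulb. All P28 libraries of the hippocampus and olfactory bulb, controls included, and 3 of the 8 from the cortex (2 control, 1 cKO) are labelled as tamoxifen-treated. The other 5 cortical libraries carry an earlier style of label without a treatment. The Cre driver, the alleles of the controls and the way astrocytes were isolated are not given in the sources used here. No label says that replicates came from separate animals, so the p-values measure the spread between these libraries, which may be technical.

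Adrenergic receptors bind noradrenaline, which in the brain is released mainly by neurons of the locus coeruleus. Alpha-1 receptors couple to Gq and release calcium from internal stores through phospholipase C and IP3 receptors, alpha-2 receptors couple to Gi and lower cyclic AMP, and beta receptors couple to Gs and raise it. In astrocytes, alpha-1 receptors are known for the calcium response to arousal and beta receptors for the breakdown of glycogen. Adra1a, Adra1b and Adra1d encode the alpha-1 receptors, Adra2a an alpha-2 receptor and Adrb1 the beta-1 receptor.

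In the GENCODE annotation of GRCm38 (mm10), Adra1a lies on the plus strand at chr14:66635251-66771168, Adra1b on the minus strand at chr11:43774606-43901210 and Adra1d on the minus strand at chr2:131545850-131562283. Adra2a lies at chr19:54044151-54048982 and Adrb1 at chr19:56722199-56733113, both on the plus strand. Adra2a has 1 merged exon of 4832 bases. The merged exons sum to 8728 bases for Adra1a, 3382 for Adra1b, 1899 for Adra1d and 3382 for Adrb1.

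The 250 bases before the annotated start of Adra2a and Adrb1 are shown because these 2 genes were high in the same libraries in some groups described below. Other groups differed. In the cortex at P7 and in its P28 cKO group, the library highest for Adra2a was lowest for Adrb1. In the hippocampus at P14 and in its P28 cKO group, their highest libraries were not the same. They were taken from RefSeq (GRCm38.p6), at chr19:54045009-54045258 for Adra2a and chr19:56721867-56722116 for Adrb1, both plus strand and 5′ to 3′. The window of Adra2a lies inside the longer GENCODE gene model. Capitals mark matches on either strand to the core of the cAMP response element (TGACG), the nuclear factor I half-site (TTGGC) and the GC box (GGGCGG).
Adra2a: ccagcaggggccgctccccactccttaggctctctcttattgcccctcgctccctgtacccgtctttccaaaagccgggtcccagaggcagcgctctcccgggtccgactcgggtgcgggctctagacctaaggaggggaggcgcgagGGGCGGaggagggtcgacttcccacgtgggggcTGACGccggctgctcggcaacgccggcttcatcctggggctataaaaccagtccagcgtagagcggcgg
Adrb1: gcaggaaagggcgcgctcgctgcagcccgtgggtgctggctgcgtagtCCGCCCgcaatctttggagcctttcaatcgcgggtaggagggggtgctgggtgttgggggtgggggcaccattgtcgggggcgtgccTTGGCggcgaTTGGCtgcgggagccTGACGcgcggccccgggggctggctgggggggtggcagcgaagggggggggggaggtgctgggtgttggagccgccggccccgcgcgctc
Each window held 1 match to TGACG, 69 bases before the start in Adra2a and 90 in Adrb1, and 1 match to GGGCGG. Adrb1 also held 2 matches to TTGGC, and Adra2a a TATAAA 29 bases before its start, left in lower case. Neither held the full palindrome TGACGTCA. Of 32851 RefSeq windows of the same length, 17.8% held TGACG, 32.7% GGGCGG, 41.5% TTGGC, 12.4% TATAAA and 1.55% TGACGTCA. A match describes letters only. The windows are rich in G and C, at 67.6% for Adra2a and 74% for Adrb1. No entry matched Adra1a or Adra1d. Adra1b matched 2 windows, which are not printed.

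Library depth ran from 1773226 to 15008466 recovered reads. In 46 libraries the ribosomal precursor Rn45s took 13.7% to 38.05% of the reads. Its share was 0.476% in replicate 2 of the olfactory bulb controls at P28 and 0.594% in replicate 2 of the hippocampal cKO group. Across libraries, 3 reads, used as the floor of detection, corresponded to 0.756 to 5.96 normalized reads. The receptor genes were near this floor in many libraries, so a few reads decide some of their values. Tables were scaled separately, and levels are therefore compared within a table only. Summed astrocyte markers (Aqp4, Slc1a2, Gja1 and 5 others) rose from P1 to P14 in each developmental table, from between 20603 and 27213 to between 492957 and 551515 normalized reads in the cortex, while 11 neuronal markers fell from between 7586 and 10759.8 to between 287 and 546. Other cell types' markers moved with age as well in the cortex: 6 mature oligodendrocyte markers summed to 90.2 to 95.5 normalized reads at P1 and 14125 to 24850.2 at P14, with 5 of 6 higher by limma, and 7 microglial markers to 272 to 408 and 1255 to 2600.03, with 7 of 7 higher. Their part in the receptor values was not tested. In bulk libraries, fewer cells of a type and less RNA per cell cannot be told apart.

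Adra1a, the alpha-1A receptor, was higher at P14 than at P1 and P7 in the cortex, and its P14 libraries varied least among the receptor genes detected there, with a coefficient of variation of 7.597%. Its normalized reads were 18.8, 8.82 and 12.8 at P1, 27.1, 21.6 and 21.3 at P7, and 47.3, 44.02, 52.7 and 49.8 at P14. No 2 ages overlapped. The means were 13.5 ± 4.998 (SD, n = 3), 23.4 ± 3.26 (SD, n = 3) and 48.5 ± 3.68 (SD, n = 4). By limma with Benjamini-Hochberg adjustment over all 11822 genes tested, Adra1a was 1.83 higher at P14 than at P1 on the log2(value + 1) scale (SE 0.27, adjusted p = 5.58e-05). It was 1.03 higher at P14 than at P7 (SE 0.27, limma adjusted p = 0.00728). The step from P1 to P7, a log2 change of 0.80 (SE 0.29), missed the threshold of 0.05 in limma (adjusted p = 0.0501).

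Adra1b, the alpha-1B receptor, was also higher at P14 than at P1 in the cortex. It had 3.41, 4.53 and 4.88 normalized reads at P1, 12.1, 6.19 and 11.8 at P7, and 17.8, 16.4, 10.7 and 13.0 at P14. Every P14 library lay above every P1 library, whereas P7 and P14 overlapped. The log2 change between P1 and P14 was 1.54 (SE 0.40, limma adjusted p = 0.00399). From P1 to P7 it was 1.02 (limma adjusted p = 0.0802), and from P7 to P14 it was 0.51 (limma adjusted p = 0.302).

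Adra2a, the alpha-2A receptor, was also higher at P14 than at P1 in the cortex, with wide spread. It had 1.99, 11.1 and 4.88 normalized reads at P1, 23.1, 13.9 and 10.4 at P7, and 45.02, 20.1, 23.0 and 22.8 at P14. All P14 libraries lay above all P1 libraries, with replicate 1 well above the other 3, and P7 overlapped both. The log2 change between P1 and P14 was 2.20 (SE 0.48, limma adjusted p = 0.00128), and 1.70 without P1 replicate 1. From P1 to P7 it was 1.42 (SE 0.52, limma adjusted p = 0.0482). That call did not hold in edgeR (adjusted p = 0.0664), with no filter on low values (limma adjusted p = 0.0872) or in limma without trend (adjusted p = 0.0562). It was also lost when P1 replicate 1 or 3 or P7 replicate 1 or 2 was left out (limma adjusted p from 0.0899 to 0.197), and the log2 change was 0.93 without P1 replicate 1.

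Adrb1, the beta-1 receptor, did not keep its P7 level at P14 in most cortical libraries. Its normalized reads were 6.25, 10.1 and 4.62 at P1, 12.1, 16.2 and 19.5 at P7, and 21.6, 6.92, 10.1 and 10.4 at P14. Every P7 library lay above every P1 library, and at P14 only replicate 1 was above the range at P7. This was the library that was also highest for Adra2a. The log2 change was 1.12 from P1 to P7 (limma adjusted p = 0.0788), -0.44 from P7 to P14 (limma adjusted p = 0.416) and 0.68 from P1 to P14 (SE 0.43, limma adjusted p = 0.187). The change from P7 to P14 was not called, and it became 0.25 under quantile normalization.

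Adra1d, the alpha-1D receptor, was at 0 reads in every cortical library at P1 and P14. At P7 it had 2, 0 and 1 reads, equal to 1.15, 0 and 0.453 normalized reads. A count of 0 allows up to 0.756 to 1.89 normalized reads in these P1 and P14 libraries (3 reads; counting error only). No fold is given, as all 3 ages were at or under the floor.

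Together, 1 of the 4 receptor genes tested was called between P1 and P7 in the cortex, where 33.7% of all genes tested were called. Adra1d was below the filter and not tested. Between P7 and P14 it was again 1, against 49.8%, and between P1 and P14 it was 3, against 64.4%. All 5 of these calls were rises, and 24% of all genes tested rose from P1 to P14 in the cortex. For P1 to P7, P7 to P14 and P1 to P14, ages did not overlap for 3, 1 and 3 of 4 tested receptor genes. The same held, in either direction, for 53.5%, 50.5% and 63.7% of all genes tested. The median gene shifted by -0.27 on the log2 scale between P1 and P14 under the deposited scaling and by 0.01 under TMM scaling, and the receptor rises kept their direction under both.

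**Figure D1:**
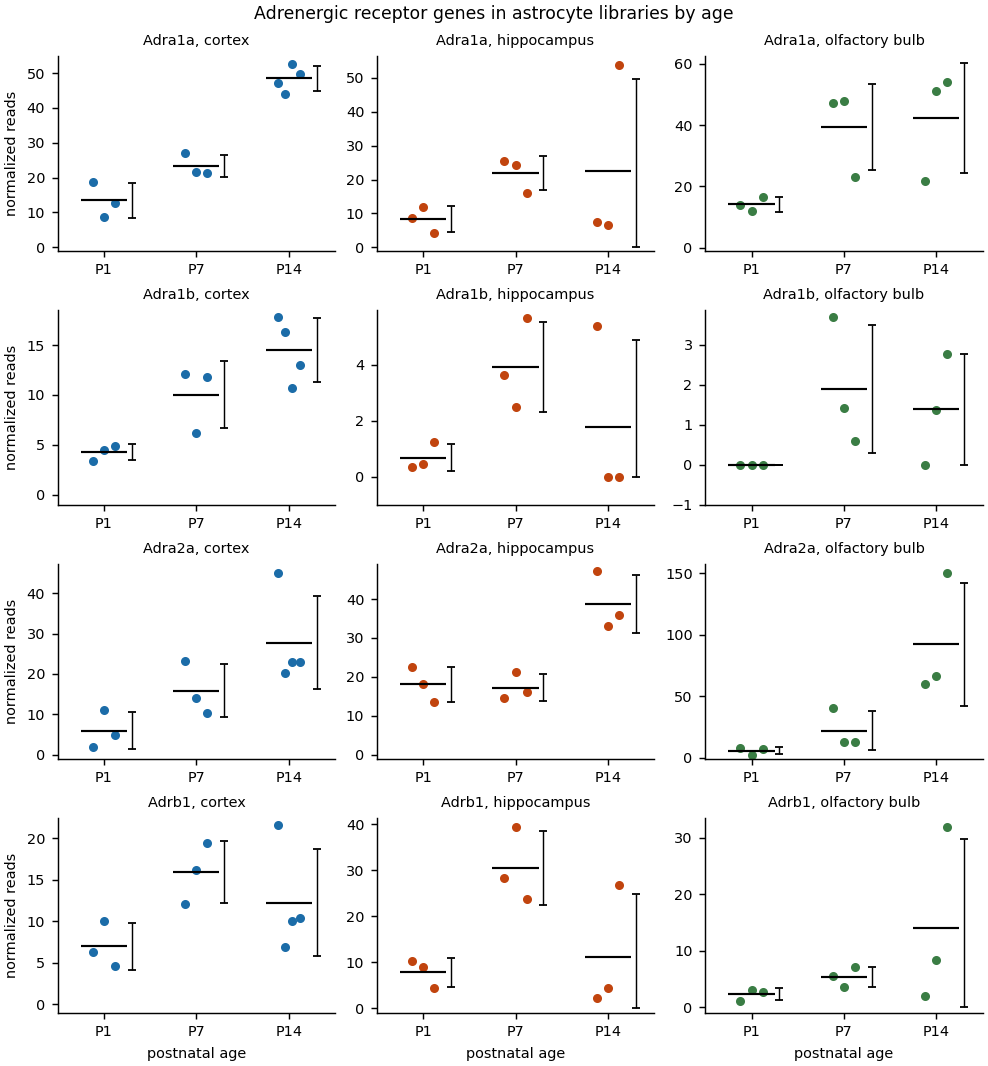
Normalized reads (y axis, linear, its own range in each panel) of Adra1a, Adra1b, Adra2a and Adrb1 (rows) at P1, P7 and P14 (x axis) in cortex, hippocampus and olfactory bulb (columns). Points are libraries, lines group means and bars beside them 1 SD, ended at 0 where they would pass below it. Adra1a in the cortex separates all 3 ages, whereas in the hippocampus at P14 a single library lies at 53.7 and the other 2 at 6.62 and 7.52.

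In the hippocampus, Adra2a was highest at P14 and the other receptor genes were highest at P7 or split at P14. Adra2a had 22.4, 18.3 and 13.5 normalized reads at P1, 14.5, 21.3 and 16.1 at P7, and 47.3, 33.1 and 35.8 at P14. All P14 libraries lay above all earlier ones, and P1 and P7 overlapped. The log2 change was 1.07 from P1 to P14 (SE 0.42), which missed the threshold in limma (adjusted p = 0.0538). edgeR on the recovered reads gave a log2 change of 1.15 (adjusted p = 0.0482) and DESeq2 gave 1.17 (adjusted p = 0.0170), both past it, whereas edgeR with no filter on low values did not pass (adjusted p = 0.106). From P7 to P14 the log2 change was 1.12 (limma adjusted p = 0.0657), and from P1 to P7 it was -0.05 (limma adjusted p = 0.963).

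Adra1a in the hippocampus had 8.55, 12.03 and 4.30 normalized reads at P1, 25.4, 24.4 and 16.1 at P7, and 7.52, 6.62 and 53.7 at P14. At P7 every library lay above those of P1, and at P14 replicate 3 was the highest of the 9 libraries while the other 2 were in the range of P1. Adrb1 had 10.3, 8.91 and 4.30 at P1, 28.4, 39.4 and 23.7 at P7, and 2.15, 4.41 and 26.9 at P14. Here too replicate 3 stood above the other 2 at P14, within the P7 range, while replicate 2 was in the P1 range and replicate 1 below it. These P14 values rest on 21 reads in all, 15 of them in replicate 3 and 2, under the floor, in replicate 1. Labels of replicates 1 and 2 carry the suffix v2 and that of replicate 3 does not, and replicate 3 had the lowest depth of the table, 2539583 reads. Its summed endothelial markers were 1.79 normalized reads, below the 5.37 and 35.3 of the other 2, and its summed astrocyte markers, 451597, lay between theirs. Endothelial and mural marker sums were highest at P7. Endothelial sums were 25.8 to 73.01 normalized reads at P1, 177 to 403 at P7 and 1.79 to 35.3 at P14, and mural sums 182 to 243, 592 to 746 and 301 to 360.1. Microglial sums were 60.2 to 79.4 at P1, 199 to 1031 at P7 and 234 to 550.2 at P14. Sums of oligodendrocyte precursors were also highest at P7, at 359 to 560, 1103 to 1475 and 859 to 1005 for the same ages. Mature oligodendrocyte sums were highest at P14, at 44.5 to 59.6, 61.5 to 94.2 and 1025 to 1700. Neuronal sums fell, from 6483 to 8464 at P1 to 1694 to 2701 at P7 and 445 to 635 at P14. The part of these features in the receptor values was not tested.

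The log2 change of Adrb1 was 1.87 from P1 to P7 (SE 0.76, limma adjusted p = 0.125) and -1.98 from P7 to P14 (SE 0.76, limma adjusted p = 0.0710). Without P14 replicate 3, the second became -2.90 and was called (limma adjusted p = 0.00367). The P14 libraries left in that fit were near the floor for Adrb1, where 3 reads equal 3.22 and 3.31 normalized reads. For Adra1a the log2 change from P1 to P7 was 1.37 (SE 0.75, limma adjusted p = 0.267). From P1 to P14 it was 0.81 (limma adjusted p = 0.396), and it was -0.11 without P14 replicate 3. With P1 and P7 fitted alone, without the P14 libraries, the steps of Adra1a and Adrb1 from P1 to P7 were both called (limma adjusted p = 0.0238 and 0.00267), where that fit called 36.9% of all genes, against 18.1% with the 3 ages fitted together.

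Adra1b was near the floor in the hippocampus and was not tested by limma. It had 1, 1 and 2 reads at P1, 6, 4 and 6 at P7, and 5, 0 and 0 at P14, so P7 lay above P1 in read number. Adra1d had at most 2 reads in any hippocampal developmental library. None of the 3 tested receptor genes was called by limma in any of the 3 age comparisons, where 18.1%, 30.1% and 49.5% of all 11578 genes tested were called between P1 and P7, P7 and P14, and P1 and P14. At an unadjusted limma p under 0.05 there were 1, 2 and 1, where 28.5%, 41.7% and 55.7% of all genes lay under it. By edgeR the counts were 0, 0 and 1, where it called 19.9%, 28.5% and 47.2% of all genes, and by DESeq2 0, 1 and 1, where it called 24.3%, 33.9% and 50.9%. Ages did not overlap for 2, 1 and 1 of the 3 tested receptor genes. The same held, in either direction, for 49.9%, 41.3% and 54.7% of all genes tested.

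In the olfactory bulb, Adra2a rose from P1 to P14 by more than Adra1a, the other tested receptor gene, under each setting run. It had 7.53, 2.20 and 7.17 normalized reads at P1, 39.9, 12.9 and 12.5 at P7, and 59.6, 66.2 and 149.9 at P14. None of the 3 ages overlapped, and replicate 3 was far above the other P14 libraries. The log2 change was 3.81 from P1 to P14 (SE 0.59, limma adjusted p = 2.59e-04) and 2.11 from P7 to P14 (SE 0.59, limma adjusted p = 0.0131). The second call was lost without P7 replicate 2 (limma adjusted p = 0.0539) or P7 replicate 3 (limma adjusted p = 0.0577). From P1 to P7 the log2 change was 1.70 (limma adjusted p = 0.0964).

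Adra1a in the olfactory bulb had reached its P14 range by P7 in all 3 libraries. It had 13.98, 11.9 and 16.5 normalized reads at P1, 47.3, 47.9 and 23.1 at P7, and 21.9, 51.0 and 54.1 at P14. All libraries of P7 and P14 lay above those of P1, and P7 and P14 overlapped. The log2 change was 1.42 from P1 to P14 (SE 0.44, limma adjusted p = 0.0175), a call lost without P1 replicate 2 (limma adjusted p = 0.0614). It was 1.36 from P1 to P7 (limma adjusted p = 0.0778) and 0.07 from P7 to P14 (limma adjusted p = 0.912).

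Adrb1 was low in the olfactory bulb and its mean over the table, 7.26 normalized reads, kept it out of the limma test. It had 1.08, 3.08 and 2.76 normalized reads at P1, 5.53, 3.57 and 7.12 at P7, and 1.99, 8.27 and 31.9 at P14. At P14 replicate 1 held 1 read, where 3 reads equal 5.96 normalized reads, so it cannot be placed against the P1 range. Replicate 3 was the highest of the 9 libraries, as for Adra2a, with 23 of the 30 reads at P14. With no filter the tools differed for P1 to P14: limma gave a log2 change of 1.61 (adjusted p = 0.136) and edgeR 2.64 (adjusted p = 0.0128). Adra1b had 0 reads in all P1 libraries and at most 6 later, and Adra1d at most 4 reads, in P7 replicate 1.

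In the olfactory bulb 0, 1 and 2 receptor genes were called from P1 to P7, P7 to P14 and P1 to P14, of 2 tested, where 10.6%, 47% and 56.1% of all 11490 genes tested were called. Ages did not overlap for 2, 1 and 2 of the tested receptor genes. The same held, in either direction, for 47.3%, 52.7% and 62.2% of all genes tested. From P1 to P7, edgeR called 1 receptor gene and 13.8% of all genes, DESeq2 called 2 and 19.7%, and both receptor genes were at an unadjusted limma p under 0.05, as were 23.9% of all genes. Markers of other cell types moved with age in this region. The 5 endothelial markers summed to 15.9 to 21.5 normalized reads at P1 and to 111, 536 and 765 at P14, all 5 higher by limma, and the 7 mural markers to 53.4 to 109 and then 376, 1520 and 1397, with 4 of 4 tested higher. Sums also went from 17.1 to 26.2 to between 191 and 351 for microglia (4 of 4 tested higher), from 79.4 to 157.4 to between 1602 and 1860.5 for mature oligodendrocytes (3 of 3 higher) and from 127 to 165 to between 1086 and 1137 for their precursors (3 of 5 higher). Neuronal sums went from between 15168 and 18567 to between 2016 and 3188. P14 replicate 3, the highest for Adra2a and Adrb1, was highest for the endothelial sum, and replicate 1 was lowest for both marker sums and for Adra1a, Adra2a and Adrb1. Whether these cells contributed to the receptor values was not tested.

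**Figure D2:**
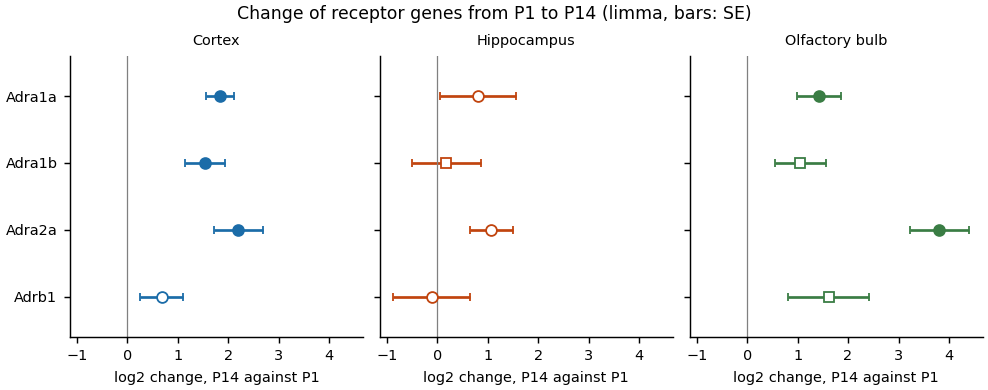
Log2 change from P1 to P14 (x axis, log2(value + 1) scale, bars SE) of 4 receptor genes (y axis) in each region. Circles are genes tested by limma, filled where the adjusted p was under 0.05, and squares are genes below the filter on low values, shown from the fit without that filter; the filled points run from 1.42 to 3.81.

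Per kilobase of GENCODE merged exon, no receptor gene stood clear of all the others in the cortex at P14. The annotation used to count the reads is not given, so this order depends on lengths that may differ from those counted. Before division by length, Adra1a had the highest mean, 48.5 normalized reads, against 27.8 for Adra2a, 14.5 for Adra1b and 12.2 for Adrb1. Normalized reads per kilobase were 5.74 ± 2.40 for Adra2a, 5.55 ± 0.42 for Adra1a, 4.28 ± 0.95 for Adra1b and 3.62 ± 1.90 for Adrb1 (SD, n = 4). Adra2a and Adra1a, and Adra1b and Adrb1, differed by less than the larger SD of the pair, whereas Adra1a lay above Adra1b by more than either SD. At P1 in the cortex the order was Adrb1, Adra1a, Adra1b and Adra2a, at 2.06, 1.54, 1.26 and 1.24, and every pair differed by less than the larger SD of the pair. In the olfactory bulb at P14 Adra2a stood first at 19.0 ± 10.4 (SD, n = 3), ahead of Adra1a at 4.85 ± 2.04 and Adrb1 at 4.16 ± 4.67. In the hippocampus Adrb1 was first at P7, at 9.01 ± 2.39, and Adra2a at P14, at 8.02 ± 1.56 (SD, n = 3 each). No test was made between genes.

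Adra1a and Adra2a had a mean of at least 10 in all 3 developmental tables, and the genes most like them in pattern were sought among 4161 genes. Likeness was the Pearson r of log2(value + 1) over 10 cortical, 9 hippocampal and 9 olfactory bulb libraries, ranked by the lowest of the 3. For Adra2a these were Parva, an actin-linked adaptor of integrin signalling (lowest r 0.893), the transcription factor Foxo1 (0.856) and the orphan receptor Gprc5b (0.854). For Adra1a they were Ufl1, a ligase of the UFM1 modifier (0.740), Fnbp1, a membrane-bending protein (0.677), and the sodium-calcium-potassium exchanger Slc24a3 (0.674). These are descriptions over libraries that share tables, ages and depth.

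Other genes of adrenergic signalling changed in both directions between P1 and P14, apart from the genes of glycogen turnover. Of 8 glycogen genes, 7 rose in the cortex, 8 in the hippocampus and 8 in the olfactory bulb, and none fell in limma. Their median log2 changes were 1.40, 2.27 and 3.05, against -0.27, -0.29 and -0.24 for all genes tested. Of all genes tested, 24%, 21% and 24.8% rose in these regions, and 40.3%, 28.5% and 31.4% fell. In the cortex Pygm, a glycogen phosphorylase, went from 7.19 ± 0.46 (SD, n = 3) to 284 ± 45.1 normalized reads (SD, n = 4), and Phkg1, a catalytic subunit of phosphorylase kinase, from 7.61 ± 3.37 to 177 ± 21.6. Gbe1, the branching enzyme, was the one that missed the threshold there, with a log2 change of 0.28 (limma adjusted p = 0.329). Astrocyte marker sums rose over the same ages, and their part was not tested.

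For the lists that follow, the share of all genes tested that rose and fell between P1 and P14 was 24% and 40.3% in the cortex, 21% and 28.5% in the hippocampus, and 24.8% and 31.4% in the olfactory bulb. Of the Gq arm, which carries alpha-1 signals, 4 genes rose and 5 fell of 11 tested in the cortex, 5 and 2 of 11 in the hippocampus, and 7 and 2 of 12 in the olfactory bulb. Itpr2, an IP3 receptor calcium channel of astrocytes, rose in all 3 regions by 1.98, 2.80 and 5.44 on the log2 scale, from 380 ± 80.95 to 1487 ± 197 normalized reads in the cortex. Its relative Itpr1 fell in the cortex, with a log2 change of -2.26 (SE 0.34, limma adjusted p = 5.36e-05). Plcb4, a phospholipase C, fell in all 3 regions, with log2 changes of -1.19, -1.53 and -1.63.

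Of the Gi arm, tied to alpha-2 receptors, 2 genes rose and 3 fell of 8 tested in the cortex, 3 and 3 in the hippocampus, and 3 and 2 in the olfactory bulb. Rgs20, a regulator that speeds up the switching-off of Gi-type G proteins, rose by 2.15, 2.35 and 2.59 in the 3 regions. Of the Gs and cAMP arm, 4 rose and 8 fell of 17 in the cortex, 5 and 5 in the hippocampus, and 6 and 3 in the olfactory bulb. The adenylyl cyclase gene Adcy2 rose by 3.35, 4.43 and 4.28 and Adcy8 by 0.77, 4.37 and 4.95, while Creb1, a cAMP-responsive transcription factor, fell, with log2 changes of -1.12, -1.05 and -1.40.

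Of the receptor kinases and arrestins, which turn receptors off, 2 rose and 3 fell of 7 tested in the cortex, 1 and 2 in the hippocampus, and 1 and 2 in the olfactory bulb. Arrb1 rose by 1.61, 1.49 and 1.55 on the log2 scale, and Grk5 fell, with changes of -1.56, -4.30 and -0.91. For noradrenaline uptake and breakdown, 2 rose and 1 fell of 4 tested in the cortex, and 3 rose and 1 fell in each other region. Maob, a monoamine oxidase, rose by 4.92, 4.50 and 3.75, and Slc29a4, a monoamine transporter, fell, with changes of -4.85, -2.10 and -3.47. Of 5 synthesis and storage genes, 1 was tested in the cortex, 1 in the hippocampus and 2 in the olfactory bulb, of which 1, the vesicle transporter Slc18a2, fell in the olfactory bulb. Dbh, the enzyme that makes noradrenaline, was at 0 reads at P1 and P14 in the hippocampus and olfactory bulb.

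**Figure D3:**
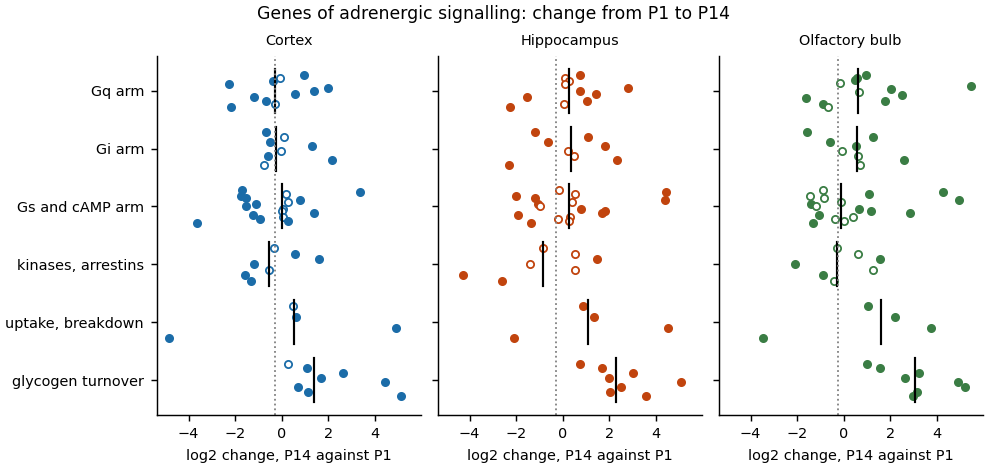
Log2 change from P1 to P14 (x axis) of the tested genes of 6 lists around adrenergic signalling (y axis) in each region. Points are genes, filled where the limma adjusted p was under 0.05, black lines list medians and the dotted line the median of all genes tested (-0.27, -0.29 and -0.24); the glycogen list lies to the right of that line in all 3 regions.

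Of 3 further receptor genes (Adra2b, Adra2c, Adrb3) none reached a mean of 10 in a developmental table. Adra2c, another alpha-2 receptor, went from 12.1 ± 5.88 normalized reads (SD, n = 3) at P1 in the hippocampus to 1.75 ± 0.74 at P7 and to 0 reads in all 3 libraries at P14. In the cortex it went from 5.44 ± 3.02 at P1 to at most 2 reads a library at P14. The mean of Adra2a was higher at P14 than at P1 in both tables. Neuronal markers fell over the same ages, and their part was not tested.

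At P28, Gabbr1 itself was lower in cKO than in control libraries of all 3 regions, with no overlap. Its log2 change was -3.45 in the cortex (limma adjusted p = 4.40e-05), the single gene called there, -1.84 in the hippocampus (limma adjusted p = 0.936) and -1.48 in the olfactory bulb (limma adjusted p = 0.877).

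In the cortex at P28, Adra1a was the highest receptor gene per kilobase and its groups overlapped through 1 cKO library. It had 40.2, 89.9, 77.8 and 103.7 normalized reads in control and 139.1, 143.7, 178.2 and 63.3 in cKO libraries. The 3 cKO libraries of the earlier label style lay above all controls, and the tamoxifen-labelled cKO library lay below 3 controls. The log2 change was 0.73 (SE 0.36, unadjusted p = 0.0624, limma adjusted p = 1.00). By the exact two-sided permutation test p was 0.171, where 0.0286 is the smallest that 4 against 4 libraries allow. Within the earlier label style it was 1.33 and within the tamoxifen-labelled style -0.50, with 2 controls in each and 3 and 1 cKO libraries.

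Adra2a and Adrb1 split the cortical controls by label style. Adra2a had 0, 0, 24.1 and 23.5 normalized reads in control and 39.3, 9.44, 19.2 and 28.8 in cKO libraries. The 2 controls at 0 were those of the earlier label style, where 0 reads allow up to 3.17 and 3.503 normalized reads. Adrb1 had 2.11, 2.34, 19.7 and 32.5 in the controls, the low pair being the same libraries with 2 reads each, and 11.2, 11.5, 24.8 and 19.2 in the cKO libraries. Within the earlier style every cKO library was above every control for both genes, and within the later style the 1 cKO library lay above both controls for Adra2a and below both for Adrb1.

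The log2 change of Adra2a in the cortex was 2.17 (SE 1.11, limma adjusted p = 1.00) and that of Adrb1 was 0.87 (SE 0.84, limma adjusted p = 1.00). Both values moved with the setting: edgeR gave 0.98 and 0.21, and leaving out 1 library gave 1.40 to 2.95 for Adra2a (lowest without control replicate 1 or 2) and 0.34 to 1.49 for Adrb1 (lowest without control replicate 1, highest without control replicate 4). With the label style as a covariate they were 2.89 (limma adjusted p = 0.743) and 1.34 (limma adjusted p = 0.780). Marker sums also differed between the styles among the controls: microglial markers were 91.1 and 108 normalized reads in the earlier style against 534 and 964, and endothelial markers 54.9 and 72.4 against 174 and 281. Mature oligodendrocyte sums were 2442 and 2554 against 7945 and 13654, and precursor and mural sums were also higher in the later style. Astrocyte sums were lower there, at 277003 and 300796 against 167638 and 203916, and neuronal sums overlapped. Their part in the receptor values was not tested. Adra1b had 4.23, 9.34, 12.1 and 9.68 normalized reads in controls and 5.61, 16.8, 7.99 and 13.4 in cKO libraries, which overlapped, with a table mean of 9.89, just under the minimum of 10.

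In the hippocampus at P28, Adra1a, Adra2a and Adrb1 were each higher in all 4 cKO libraries than in both controls. Adra1a had 6.26 and 52.5 normalized reads in control and 65.8, 249.9, 55.9 and 56.2 in cKO libraries. The groups did not overlap, but the higher control lay just below 2 cKO libraries. Adra2a had 16.4 and 12.5 in control and 23.2, 82.3, 96.6 and 41.6 in cKO libraries. Adrb1 had 8.60 and 8.90, and then 30.02, 141.6, 16.0 and 33.9. For Adra1a and Adrb1 the highest library was replicate 2, the one with little Rn45s.

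Of all 11639 genes tested in the hippocampus at P28, 7.08% were higher in cKO without overlap. The log2 changes were 2.13 for Adra1a (SE 0.87, unadjusted p = 0.0363), 1.81 for Adra2a (SE 0.68, unadjusted p = 0.0239) and 2.04 for Adrb1 (SE 0.86, unadjusted p = 0.0397) in limma. None of the 3 passed the threshold, with a limma adjusted p of 0.936 for each, and none did in edgeR or DESeq2. An unadjusted limma p under 0.05 was seen for 296 genes and none was called, so 0% of genes passed. The exact two-sided permutation p was 0.133 for each, the smallest that doubling the smaller tail allows for 4 against 2 libraries. It was 0.643 after adjustment over 15 tests (5 receptor genes in 3 regions).

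Leaving out cKO replicate 2, the hippocampal log2 changes were 1.61 for Adra1a, 1.60 for Adra2a and 1.44 for Adrb1 (limma adjusted p = 0.840). That of Adra1a was 0.68 without control replicate 1 and 3.57 without control replicate 2. The summed mural markers were 141.6 and 216 normalized reads in control and 308 to 392 in cKO libraries, and the microglial ones 52.5 and 56.3 against 104.6 to 591, also with no overlap. Astrocyte sums overlapped, both controls lying inside the cKO range of 123286 to 375199. The highest was that of cKO replicate 2. This library was also highest for the neuronal, endothelial, mature oligodendrocyte and precursor sums, but not for the mural or microglial ones. The part of these cells in the receptor values was not tested. Adra1b had at most 7 reads in any of these libraries and Adra1d 0 in all 6.

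In the olfactory bulb at P28 the receptor genes overlapped between genotypes. Adra1a had 110.2, 35.7 and 77.6 normalized reads in control and 55.9, 71.7 and 77.5 in cKO libraries. Adra2a had 75.8, 126 and 86.1, and then 67.9, 85.6 and 145.6. Adrb1 had 6.89, 42.6 and 2.84, and then 2.58, 17.9 and 11.6. For Adra2a and Adrb1 the highest control was replicate 2, the library with little Rn45s, which was lowest for Adra1a. The log2 changes were 0.00 for Adra1a (SE 0.45), 0.01 for Adra2a (SE 0.38) and -0.21 for Adrb1 (SE 1.11) in limma, with adjusted p of 0.998, 0.993 and 0.970. These errors leave room for changes in either direction, and 3 against 3 libraries cannot give an exact two-sided permutation p below 0.1.

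At P28 the 3 receptor genes tested in each region were Adra1a, Adra2a and Adrb1, and 0 were called by limma, edgeR or DESeq2. Over all genes limma called 0.00982%, 0% and 0% in the cortex, hippocampus and olfactory bulb. Over all genes edgeR called 0.00982%, 0% and 0% and DESeq2 0.00982%, 0.00859% and 0.191%. At an unadjusted limma p under 0.05 there were 0, 3 and 0 receptor genes, against 2.17%, 2.54% and 3.02% of all genes. No gene of the lists around adrenergic signalling was called either. The effects in the 3 regions were not tested against each other, as their tables were scaled separately.

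**Figure D4:**
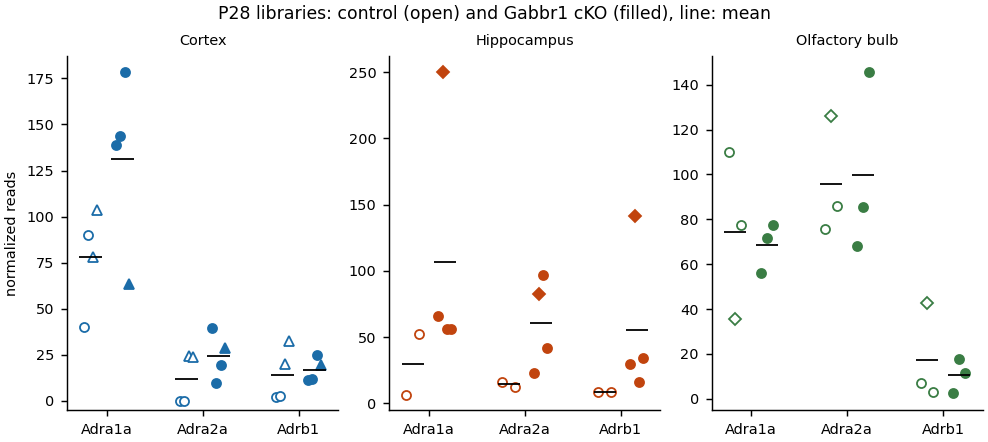
Normalized reads (y axis, linear, its own range in each panel) of Adra1a, Adra2a and Adrb1 (x axis) at P28 in control (open, left of each pair) and Gabbr1 cKO (filled, right) libraries of each region. Points are libraries and lines group means; triangles mark tamoxifen-labelled cortical libraries and diamonds the 2 libraries under 1% Rn45s. In the hippocampus the filled points lie above the open ones, with 1 diamond at 249.9 for Adra1a and 141.6 for Adrb1.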

How the data were processed

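RNA from astrocytes was turned into libraries with a low-input total RNA kit, per the labels' protocols. STAR 2.5.0a, DESeq2 1.20.0 and mm10 are named in the submitters' processing notes, and the counting program, annotation and strand setting are not given in the sources used here. The deposited values are a normalized read signal, each the reads of a gene divided by 1 size factor per library by the authors, as read from the values. Whole reads were recovered within 0.01 reads. The 5 receptor genes and the lists around them were chosen with earlier results of these data known.

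Changes were tested with limma 3.58.1 (R 4.3.3) on log2(value + 1) for genes with a mean of at least 10 in a table, with Benjamini-Hochberg adjustment over all genes tested and a threshold of 0.05. The 3 ages of a region shared a fit, and P28 fits used both genotypes. The code was tested on simulated data. Named genes were the 5 receptors, members of the lists, Gabbr1, and for each receptor with a mean of at least 10 in every developmental table the 3 genes most like it among genes with a mean of at least 100, without predicted genes. Exact permutation p-values double the smaller tail. This replaced, after the results had been seen, a count of absolute differences, which at hippocampal P28 gave 0.0667 for Adra1a, 0.133 for Adra2a and 0.2 for Adrb1, where doubling gives 0.133 for each. No call changed. Alternatives were pseudocounts of 0.5 and 8, no filter, TMM, quantile and median-ratio scaling, limma without trend, edgeR 4.0.16 and DESeq2 1.42.0 on recovered reads, narrower sets of samples, and leaving out each library. Some but not all cortical P14 libraries had the Y-linked gene Ddx3y above 10 normalized reads, and a narrower set left these out. Intervals and floors cover counting error only. The 27 symbols that had been turned into dates were restored by row order. Older symbols were used for 2 receptor kinases.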

Additional observations from a re-analysis of the deposited data

Results flagged for a closer look

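In 3 of 16 combinations of a receptor gene and a group of 4 libraries, 1 library stood far from the other 3 by Dixon's criterion, which chance meets in about 1 of 20 groups. Adra1a had 249.9 normalized reads in hippocampal P28 cKO replicate 2 against 55.9 to 65.8 in the other 3. Adrb1 had 141.6 in that same library against 16.0 to 33.9. This was the hippocampal library in which Rn45s took 0.594% of the reads, and the receptor changes without it are given above. Adra2a had 45.02 normalized reads in cortical P14 replicate 1 against 20.1 to 23.0 in the other 3, and without that library its log2 change from P1 to P14 was 1.94 (limma adjusted p = 0.00531).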

How the results depend on the processing

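Receptor calls near the threshold moved with the settings, and many receptor values rest on few reads. Median-ratio scaling, edgeR without a filter and single label styles were added after the data were seen. Of 210 counts of called receptor genes under alternatives, 173 stayed within 1.5 times. These include all P28 counts, which were 0 under every alternative as in the main fit and so say little about stability. No paired analysis was possible because replicate numbers follow accession order and pair nothing. In the cortex from P1 to P7 the count was 1, and it was 0 with a pseudocount of 8, with no filter and in edgeR with no filter, 2 under TMM and median-ratio scaling and in edgeR, 3 under quantile normalization, in DESeq2 and in limma without trend, and 0 to 1 when 1 library was left out. From P7 to P14 quantile normalization gave 3 in place of 1, with Adrb1 at 0.25, and from P1 to P14 the count stayed between 2 and 4. Quantile normalization called 48.1% of all genes from P7 to P14 in the cortex, against 49.8% in the main fit. In the hippocampus the counts of 0 became, from P1 to P7, 1 under quantile normalization and 2 with only the 2 ages compared, and from P7 to P14, 1 with a pseudocount of 8, under quantile normalization, in limma without trend and in DESeq2. From P1 to P14 the hippocampal count became 1 with a pseudocount of 8, under median-ratio scaling, in limma without trend, in edgeR and in DESeq2, and 2 under quantile normalization. Shares of all genes called were 30.1% from P7 to P14 in the main fit, 26.2% under quantile normalization and 33.9% in DESeq2. From P1 to P14 they were 49.5%, 48.7% and 50.9%, and 47.2% in edgeR. Leaving out 1 library gave 0 to 1 for both steps to P14. In the olfactory bulb from P1 to P7 the count of 0 became 1 in edgeR and 2 in DESeq2, in edgeR with no filter and with only the 2 ages compared, and 0 to 1 when 1 library was left out; from P7 to P14 leaving out gave 0 to 1, and from P1 to P14 1 to 2. The share of all genes called moved with the setting too. From P1 to P7 in the cortex it was 33.7%, with 31.9% under TMM, 32.8% in edgeR, 35.1% in DESeq2 and 38% under quantile normalization. The hippocampal share was 18.1%, with 24.5% under quantile normalization and 36.9% with only the 2 ages compared. That of the olfactory bulb was 10.6%, with 13.8% in edgeR, 19.7% in DESeq2 and 31% with only the 2 ages compared. The cause of these shifts was not tested.

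Signs turned only in changes that had not been called. In the cortex, Adrb1 from P7 to P14 became 0.25 under quantile normalization. In the hippocampus, Adra1a from P7 to P14 became 0.43 under quantile normalization, 0.0103 in edgeR and 0.0512 in DESeq2, and Adrb1 from P1 to P14 became 0.0681 with a pseudocount of 8, 1.39 under quantile normalization, 0.42 in edgeR, 0.48 in DESeq2 and 0.38 in edgeR with no filter. When 1 library was left out, hippocampal Adra2a from P1 to P7 ran from -0.23 to 0.11, Adrb1 from P1 to P14 from -1.03 to 0.55 and Adra1a from P1 to P14 from -0.11 to 1.31. Adra1a of the olfactory bulb from P7 to P14 ran from -0.27 to 0.48. At P28 the cortex gave -0.50 for Adra1a and -0.38 for Adrb1 in the later label style alone. Adra1a of the olfactory bulb at P28 was -0.0082 with a pseudocount of 8, -0.0186 under quantile normalization, -0.13 in edgeR, -0.14 in DESeq2 and -0.11 in edgeR with no filter, and Adrb1 was 0.0070 under quantile normalization. Leaving out 1 library there gave -0.44 to 0.35 for Adra1a, -0.29 to 0.25 for Adra2a and -0.97 to 0.49 for Adrb1.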
